A study of Mus musculus with 4 samples.

Results

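Mast cells and basophils are the granule-bearing cells of allergy, and 8 genes that mark them were followed in mouse blood stem and progenitor cells that had lost Aspp1, p53 or both. The genes were Tpsab1, Tpsb2, Cpa3, Mcpt8, Prss34, Fcer1a, Ms4a2 and Hdc, chosen by symbol as classical products of these cells. They were read by 9 probes of the 55681 gene probes on the array, with 1 probe for each gene except Tpsb2, which had 2. Tpsab1, Tpsb2 and Prss34 lie together on chromosome 17, and Fcer1a, Hdc, Cpa3, Mcpt8 and Ms4a2 lie on chromosomes 1, 2, 3, 14 and 19. The cells were LSK cells, the lineage-negative fraction of bone marrow positive for Sca-1 and cKit that holds blood stem cells and multipotent progenitors. Mature mast cells and basophils were not sorted as populations of their own, and whether any fell inside the gate was not tested.

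The Aspp1-/-p53-/- cells came from Mx1-Cre(+) Aspp1-/- p53 flox/flox mice, the p53-/- cells from Mx1-Cre(+) p53 flox/flox mice, the Aspp1-/- cells from mice without Aspp1 and the WT cells from wild-type mice, with neither Mx1-Cre nor a floxed allele named for the last pair. All mice were C57BL/6 males, given pIpC 5 times from the age of 8 weeks and studied at 12 weeks, so every group, WT included, had received the compound. pIpC is an RNA mimic that raises interferon, and interferon drives Cre from the Mx1 promoter, so p53 was deleted in the adult, in blood and other responding cells, whereas loss of Aspp1 did not depend on Cre. The sample labels give the dose as 403 μg for Aspp1-/-p53-/-, 402 μg for p53-/-, 401 μg for Aspp1-/- and 400 μg for WT, while the design text gives 400 μg for all. RNA of 3 mice was pooled per genotype and hybridised to 1 array, so no spread between mice was measured. Loss of p53, presence of Mx1-Cre, the floxed p53 allele, any sequence of another strain carried beside these alleles and the second row of the slide fell on the same 2 arrays and cannot be told apart. The sources do not say how far the lines were backcrossed to C57BL/6.

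Mast cells and basophils carry IgE on the receptor FcεRI, built from an α chain that binds IgE (Fcer1a), a β chain that amplifies the signal (Ms4a2) and a γ chain shared with other Fc receptors (Fcer1g). When antigen links the bound IgE, granules are released that hold histamine, which histidine decarboxylase (Hdc) makes from histidine, and proteases: the tryptases mMCP-7 (Tpsab1) and mMCP-6 (Tpsb2), carboxypeptidase A3 (Cpa3), and the proteases mMCP-8 (Mcpt8) and mMCP-11 (Prss34), the last 2 known above all from mouse basophils. Both cell types arise in bone marrow from progenitors that use GATA2, and some of these genes, Cpa3 and Hdc among them, are known to be transcribed already in progenitors.

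The probes behind the tryptase values are shown first. Tpsab1 and Tpsb2 are neighbouring, closely related genes, so a probe of one could in principle pick up the transcript of the other, which was not tested here because only probe sequences were compared. The Tpsab1 probe lies at chr17:25480640-25480699 on the minus strand and the second Tpsb2 probe at chr17:25504493-25504552 on the plus strand (mm9, both as deposited). Capitals mark the 16 bases that match in the best alignment without gaps, which spans 22 positions.
Tpsab1 probe: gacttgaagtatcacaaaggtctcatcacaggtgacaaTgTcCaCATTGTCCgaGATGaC
Tpsb2 second probe: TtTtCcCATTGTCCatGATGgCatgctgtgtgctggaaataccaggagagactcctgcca
The longest run of bases shared by these probes was 8, and the Tpsab1 probe shared at most 6 in a row with the first Tpsb2 probe. Among the 55680 other probes the longest run it shared was 14 bases, with a probe of Scn1a. The Tpsb2 sequence that faces the rest of the Tpsab1 probe was not compared. RefSeq lists Tpsab1 as a transcribed pseudogene in the C57BL/6J genome (GRCm38.p6) and the other 7 genes as protein-coding. Mast cells of C57BL/6 mice are known to lack mMCP-7.

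Promoters of 6 of the 8 genes were in the RefSeq table, and those of Cpa3 and Hdc are shown because Cpa3 varied least between the arrays and Hdc most among the genes detected on every array. The 250 bases before the start were searched on both strands for the GATA-factor motifs AGATAA as well as TGATAA and likewise AGATAG, and for the E-boxes CAGCTG and CACCTG. Capitals mark the matches. The windows are chr3:20242182-20242431 for Cpa3 and chr2:126618679-126618928 for Hdc, both on the minus strand (GRCm38.p6).
Cpa3 promoter: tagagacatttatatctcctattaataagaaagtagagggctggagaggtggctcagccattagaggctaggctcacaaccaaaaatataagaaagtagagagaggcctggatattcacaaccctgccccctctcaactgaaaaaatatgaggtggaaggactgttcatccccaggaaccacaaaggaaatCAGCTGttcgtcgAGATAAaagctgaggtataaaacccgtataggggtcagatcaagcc
Hdc promoter: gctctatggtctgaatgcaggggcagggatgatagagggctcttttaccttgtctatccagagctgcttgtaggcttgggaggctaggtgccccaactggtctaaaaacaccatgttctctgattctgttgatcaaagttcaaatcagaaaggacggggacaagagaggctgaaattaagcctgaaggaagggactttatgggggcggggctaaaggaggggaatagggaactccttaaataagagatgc
AGATAA was present in 4 of the 6 promoters, those of Cpa3, Prss34, Fcer1a and Ms4a2, and in 9.99% of all 32851 promoters. It stood 46 bases before the start of Cpa3 and 31 before that of Prss34. CAGCTG was found in Cpa3 and Fcer1a (13.0% of all promoters) and CACCTG in Mcpt8 (17.2%), whereas TGATAA and AGATAG were in none of the 6, against 7.94% and 7.71% of all promoters. These letters are a description of the windows, and the Hdc window held none of the 5 motifs searched. The related GATA form TGATAG was not searched, and it is present, in lower case, in the printed Hdc window.

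Levels below are log2 processed signals minus the 75th percentile of the same array, so 0 is that percentile. A probe was called detected where the scanner software marked it as well above background. Its error model, which assumes a multiplicative error of 10%, gives each difference a technical error (0.20 to 0.24 on the log2 scale for the 6 genes detected on every array), which says nothing of differences between mice. With 1 array per genotype there is no test of a difference between 2 genotypes, and a size of at least 2-fold was used to call genes. As a check of the samples, the Aspp1 gene, Ppp1r13b, was at 1.94 in Aspp1-/-p53-/- and 1.91 in Aspp1-/- cells, against 4.46 in p53-/- and 4.53 in WT cells, and Trp53 was at −1.67 in Aspp1-/-p53-/- and −1.82 in p53-/- cells, against 0.45 in Aspp1-/- and 0.36 in WT cells. The 10 genes chosen to check the LSK gate, Cd34 and Mecom among them, were detected on all 4 arrays. None differed 2-fold in any comparison, where 11.9% of all genes and transcripts did. Of 10 genes listed for mature lineages, not all of them confined to mature cells, 8 were detected, Itgam (4.56, 4.50, 4.44 and 4.52 in Aspp1-/-p53-/-, p53-/-, Aspp1-/- and WT cells) and Klrb1c among them.

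Of the 8 genes, 6 were detected on all 4 arrays (as were 81.4% of probes detected on at least 1) and Tpsab1 on 2, while Ms4a2 was not well above background on any. Tpsab1 was the single gene to pass 2-fold, higher in both genotypes with Mx1-Cre and deleted p53. It was 1 of 7 measured genes in Aspp1-/-p53-/- against Aspp1-/- cells (3.68% of 21607 genes and transcripts were at least 2-fold higher), in Aspp1-/-p53-/- against WT cells (3.5% of 21771) and in p53-/- against WT cells (3.61% of 21851). None was 2-fold higher in Aspp1-/-p53-/- against p53-/- cells (2.48%) or in Aspp1-/- against WT cells (1.32%). None was 2-fold lower in any of the 5 comparisons, where 3.29%, 1.93%, 2.43%, 1.52% and 2.16% of genes and transcripts were, in the order Aspp1-/-p53-/- against p53-/-, Aspp1-/- and WT, then p53-/- against WT and Aspp1-/- against WT. The remaining 6 differed by less than 2-fold throughout, with Hdc, lower in Aspp1-/-p53-/- cells, nearest to it. Since RNA was taken from whole sorted populations, fewer cells of a type and less RNA per cell cannot be told apart for any of these genes.

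**Figure D1:**
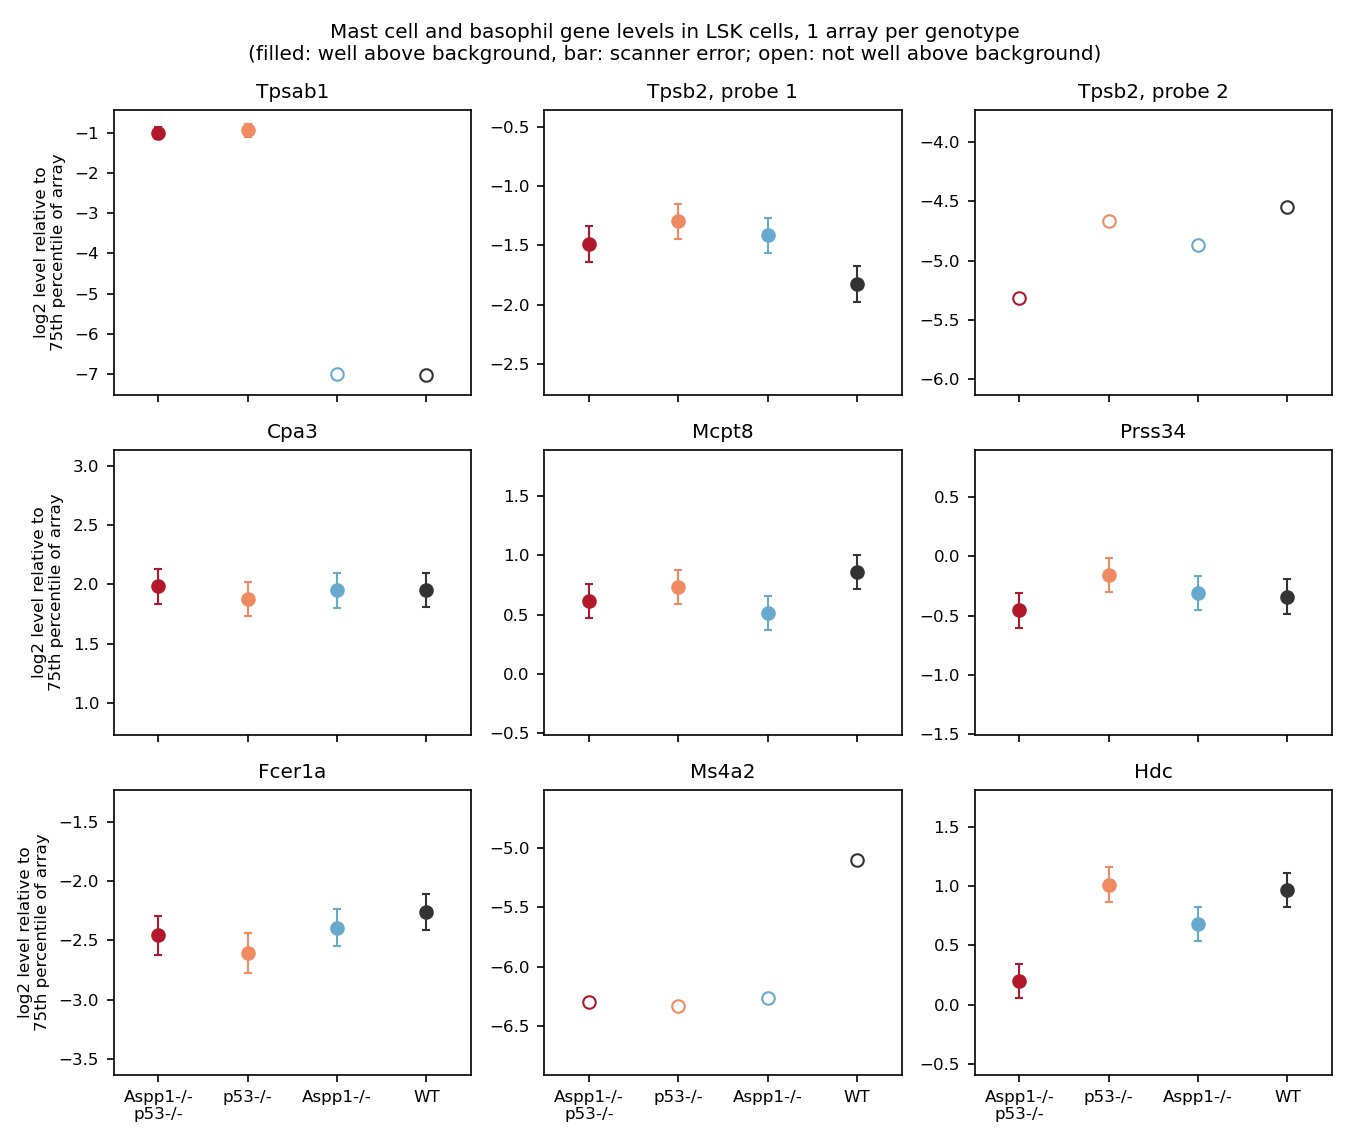
Level of each of the 9 probes on each of the 4 arrays (y axis, log2 processed signal relative to the 75th percentile of the array; each panel has its own range). Tpsab1 stands at −1.01 and −0.94 in Aspp1-/-p53-/- and p53-/- cells and is not well above background in Aspp1-/- and WT cells, while Cpa3 is level and Hdc is lowest in Aspp1-/-p53-/- cells. Bars are the scanner's technical error and open points are not well above background.

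The tryptase gene Tpsab1 was on or off by array. Its processed signal was 267 in Aspp1-/-p53-/- cells and 303 in p53-/- cells, against 4.68 in Aspp1-/- cells and 4.38 in WT cells. The 2 low values are surrogates that the software writes for spots near background, and they have no order. Before background correction the mean spot signal was 323 and 356 in Aspp1-/-p53-/- and p53-/- cells, against 53.6 in Aspp1-/- and 48.7 in WT cells, with a local background of 32 to 35 on every array. Set against the lowest signal called well above background on the dim array, Tpsab1 was at least 30.5-fold higher in Aspp1-/-p53-/- than in Aspp1-/- cells (log2 4.93). It was at least 16.8-fold higher in Aspp1-/-p53-/- than in WT cells (log2 4.07) and at least 17.6-fold higher in p53-/- than in WT cells (log2 4.14). The bounds differ with that floor, which was −5.94 in Aspp1-/- and −5.08 in WT cells, and they apply to the software's background correction alone. The floor is a rule and no strict limit for a spot that was not called. In Aspp1-/- cells the second Tpsb2 probe, at −4.87, lay above it and was also not called. With the local background alone subtracted from the mean spot signal, the ratio was 13.3 for Aspp1-/-p53-/- over Aspp1-/-, 19.5 for Aspp1-/-p53-/- over WT and 21.7 for p53-/- over WT cells, so the 30.5-fold bound does not hold on that scale. With normexp background correction, which adds an offset, the same differences were 2.21, 2.12 and 2.15 on the log2 scale. Aspp1-/-p53-/- and p53-/- cells differed by −0.07, less than the technical error of 0.21.

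The pattern was uncommon on these arrays. Of 32498 probes detected on at least 1 array, 110 (0.338%) were detected on both Mx1-Cre arrays and on neither of the others, and 900 (2.77%) showed the reverse. These counts are not on equal terms. Fewer probes were called in Aspp1-/-p53-/- (50.3%) and p53-/- cells (51.2%) than in Aspp1-/- (52.9%) and WT cells (53.3%), and their floors were higher, at −4.56 and −4.63. In that group of 110, 1 other probe, that of Sat2, named after its values were seen, was as bright on both Mx1-Cre arrays as that of Tpsab1. Chromosome 17 held 5 of the 110, and the other 4 lay at least 8.54 Mb from Tpsab1.

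The neighbourhood of Tpsab1 did not share it. Within 100 kb on either side lay 15 other probes, and none was detected on the Mx1-Cre arrays alone. Of the 16 probes, 8 were detected on all 4 arrays and 6 on none. The proteases Prss34 (at −43.7 kb) and Prss28 (at −31.9 kb) and the first Tpsb2 probe (at 24.2 kb) were detected on every array, while the probes of Prss29 and Tpsg1, a membrane-anchored tryptase, were not well above background on any.

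**Figure D2:**
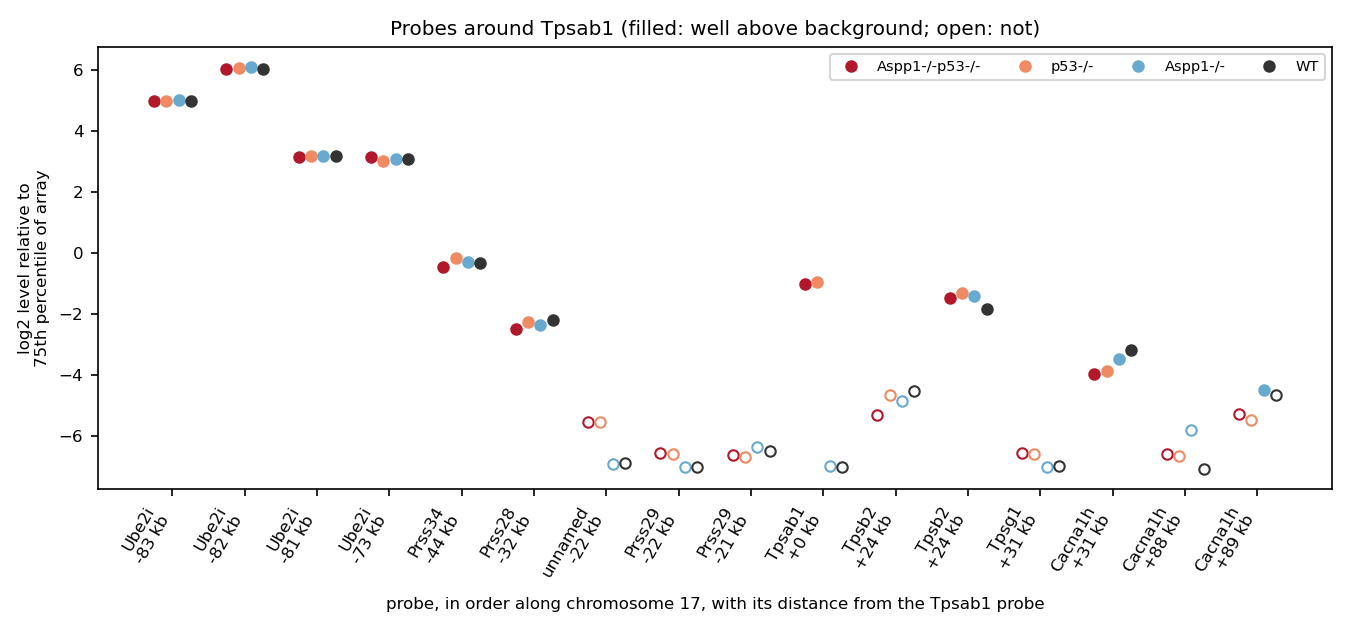
Probes within 100 kb of the Tpsab1 probe, in their order along chromosome 17 (x axis, not to scale, with the distance in kb), and their log2 level on each array (y axis, relative to the 75th percentile of the array). Filled points are well above background. Tpsab1 is filled on the Aspp1-/-p53-/- and p53-/- arrays and open on the Aspp1-/- and WT arrays, and no other probe shows that split.

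Tpsb2, the tryptase found in C57BL/6 mast cells, did not follow Tpsab1. Its first probe had a signal of 191 in Aspp1-/-p53-/-, 236 in p53-/-, 224 in Aspp1-/- and 161 in WT cells. WT was the lowest array, below p53-/- cells by 0.53 ± 0.21 (log2 difference of p53-/- over WT with its technical error), and the 3 mutant arrays lay within 0.19 of each other. The second probe, with signals of 13.5 in Aspp1-/-p53-/-, 22.8 in p53-/-, 20.5 in Aspp1-/- and 24.4 in WT cells, was not well above background on any array, and the Tpsb2 values rest on the first probe.

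Cpa3, which encodes the exopeptidase of mast cell granules, was the steadiest of the 6 genes detected on every array. Its signal was 2122 in Aspp1-/-p53-/-, 2132 in p53-/-, 2312 in Aspp1-/- and 2212 in WT cells, and the 4 scaled levels spanned 0.11 on the log2 scale, less than the technical error of 0.20. The span of all 26465 probes detected on every array had a median of 0.22 and a 90th percentile of 0.66. Among 13306 named genes the profiles nearest to that of Cpa3, by Euclidean distance of the 4 centred log2 levels, were those of Trib2 (0.00873), Pde12 (0.00926), Bcor (0.0113), Rnmt (0.0131) and Smg1 (0.0136). A flat profile has many near neighbours, and 2156 genes (16.2%) lay within a distance of 0.1.

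The basophil protease Mcpt8 had signals of 822 in Aspp1-/-p53-/-, 964 in p53-/-, 855 in Aspp1-/- and 1033 in WT cells. Its order from highest was WT, p53-/-, Aspp1-/-p53-/- and Aspp1-/-, with steps of 0.10 to 0.12 that were each within the technical error, and the ends differed by −0.34 ± 0.20 (Aspp1-/- over WT). Prss34, the protease used as a basophil marker beside Mcpt8, had signals of 391 in Aspp1-/-p53-/-, 520 in p53-/-, 484 in Aspp1-/- and 451 in WT cells. It was highest in p53-/- and lowest in Aspp1-/-p53-/- cells, which differed by −0.30 ± 0.21 (Aspp1-/-p53-/- over p53-/-), and its neighbouring levels also differed by less than the technical error.

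The receptor for IgE was detected in part. Fcer1a, its IgE-binding chain, had signals of 97.7 in Aspp1-/-p53-/-, 95.2 in p53-/-, 114 in Aspp1-/- and 119 in WT cells, all well above background. It was lowest in p53-/- cells, at −0.34 ± 0.23 against WT, and no neighbouring pair in the order differed by more than 0.15. Ms4a2, the β chain, gave 6.85 in Aspp1-/-p53-/-, 7.22 in p53-/-, 7.80 in Aspp1-/- and 16.7 in WT cells, none of them well above background, so no difference is given. The shared chain Fcer1g, which many myeloid cells use and which is named here for its role, was at 2.95, 2.99, 2.71 and 2.96 in Aspp1-/-p53-/-, p53-/-, Aspp1-/- and WT cells.

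Hdc, the enzyme that makes histamine, varied most among the 6 genes detected on every array. Its signal was 618 in Aspp1-/-p53-/- cells, 1171 in p53-/-, 958 in Aspp1-/- and 1115 in WT cells. The Aspp1-/-p53-/- array was lowest, at −0.81 ± 0.20 against p53-/-, −0.76 ± 0.20 against WT and −0.48 ± 0.20 against Aspp1-/- cells. The first of these is a ratio of 1.75 and 3.96 times the technical error, short of 2-fold. p53-/- and WT cells differed by 0.05, within that error, and Aspp1-/- cells stood between, at −0.29 ± 0.20 against WT. The span of 0.81 lay above the 90th percentile of all probes (0.66), as did that of no other of the 6 genes.

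Neutrophil genes were lower on the same array as Hdc. Of 9 neutrophil genes, 7 (Ngp, Ltf, Camp, S100a8, S100a9, Retnlg and Lcn2) were at least 2-fold lower in Aspp1-/-p53-/- cells against each of the other genotypes. Of all genes and transcripts, 3.29% were so against p53-/-, 1.93% against Aspp1-/- and 2.43% against WT cells. The medians of the 9 were −1.54 against p53-/-, −1.41 against Aspp1-/- and −1.70 against WT cells, where the medians of all genes lay within 0.01 of 0. The summed level of all 9 genes, in units of the 75th percentile, was 295 in Aspp1-/-p53-/- cells, 397 in p53-/-, 356 in Aspp1-/- and 410 in WT cells. Mpo, which is not among the 7, was the brightest (7.84 in Aspp1-/-p53-/- and 7.91 in p53-/- cells, log2) and weighs most in it. The sum therefore understates the fall of the 7. All 9 genes were detected on every array. The dimmest of them by probe, Retnlg, was at −2.04, −0.27, 0.40 and 0.31 in Aspp1-/-p53-/-, p53-/-, Aspp1-/- and WT cells, while Mpo, an early granule enzyme, was at −0.08 against p53-/-, 0.13 against Aspp1-/- and −0.05 against WT cells in Aspp1-/-p53-/- cells. The part of these cells in the Hdc value was not tested. By the likeness measure used for Cpa3, applied to Hdc after its values were seen, the nearest gene was Foxo3 (0.0353), followed by Sema3d (0.113), Fgf18 (0.134), Trem3 (0.152) and Aldh3b1 (0.156). Only 1 gene, Foxo3, lay within 0.1 of Hdc.

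**Figure D3:**
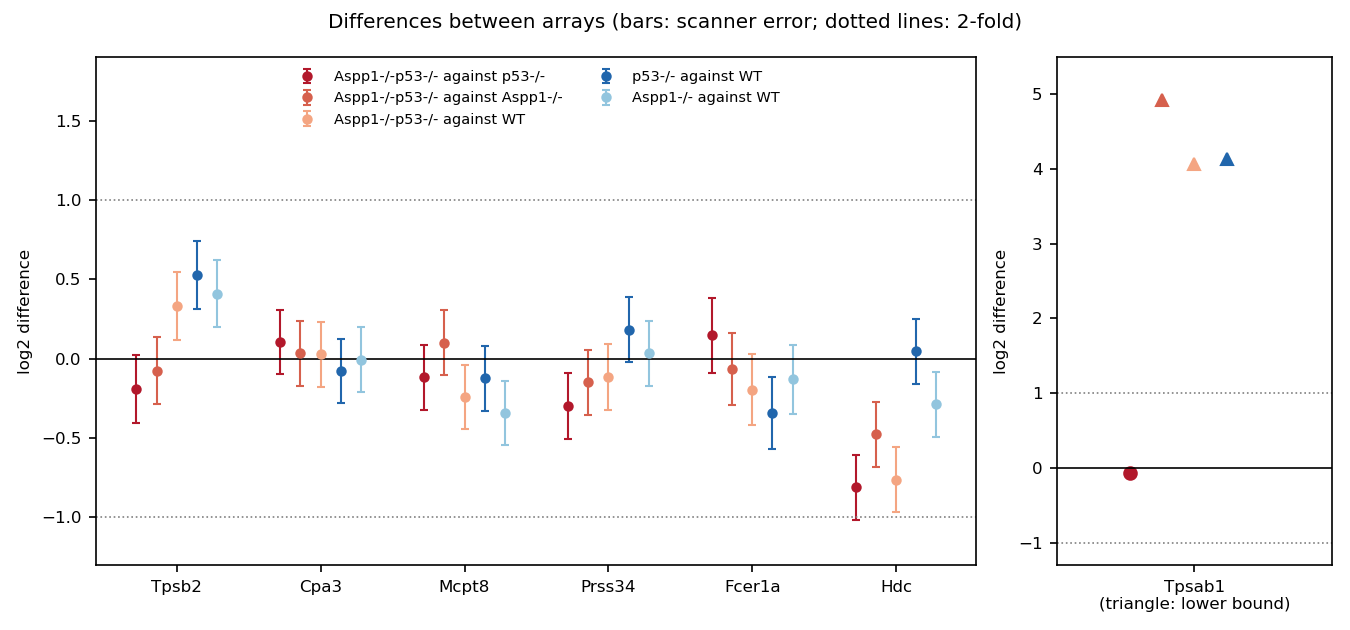
Log2 differences of the 7 measured genes in the 5 comparisons (y axes; each value is the first-named genotype over the second). Dots carry the scanner's technical error, triangles are lower bounds for Tpsab1, and dotted lines mark 2-fold. Tpsab1 bounds are 4.93, 4.07 and 4.14, and Hdc reaches −0.81 in Aspp1-/-p53-/- against p53-/- cells.

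As a set, the 7 measured genes had medians near 0. The median was −0.12 in Aspp1-/-p53-/- against p53-/- cells, −0.07 against Aspp1-/- and −0.12 against WT cells, with 2, 3 and 3 of the 7 above 0. In p53-/- against WT cells it was 0.05 with 4 of 7 above 0, and in Aspp1-/- against WT cells, where Tpsab1 gave no value, it was −0.07 with 2 of 6 above 0. These comparisons share arrays and are not independent of each other.

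An additive model of both losses was fitted with limma to 32498 probes, with 1 residual degree of freedom per probe. No probe passed an adjusted p of 0.05 (Benjamini-Hochberg) for either loss, among them the probes of Ppp1r13b and Trp53, and 1510 (4.65%) and 2531 (7.79%) had an unadjusted p below 0.05 for loss of Aspp1 and of p53. For loss of p53, Tpsab1 had an effect of 6.04 ± 0.07 (SE, limma, unadjusted p = 0.000104, adjusted p = 0.637), which rests on the surrogate values of 2 arrays and is not a fold. Over the settings tried, its effect ran between 2.44 and 6.04 and its adjusted p between 0.481 and 0.668. No other member had an unadjusted p below 0.05 for either loss. The Aspp1 effect on Hdc was −0.55 ± 0.19 (SE, limma, adjusted p = 0.751).

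The wider programme of mast cells and basophils was examined through lists of known genes. Of 10 other proteases, of mast cells or of the stretch around Tpsab1, 3 were detected: Prss28, Cma2 and Ctsg, which is also a protease of early neutrophils. Prss28, listed here as a neighbour of Tpsab1 and not as a mast cell product, was at −2.49, −2.27, −2.36 and −2.20 in Aspp1-/-p53-/-, p53-/-, Aspp1-/- and WT cells. The probes of the connective tissue and mucosal mast cell proteases Cma1, Mcpt1, Mcpt2, Mcpt4 and Mcpt9 were not well above background on any array. None of the 3 differed 2-fold in any comparison.

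Signalling genes downstream of FcεRI were detected in full. All 16 were well above background on all arrays, as were 81.4% of probes detected on at least 1. None passed 2-fold in any of the 5 comparisons, where 11.9% of all genes and transcripts did, and the medians lay between −0.02 and 0.06. Gab2, the adaptor that couples the receptor to PI3-kinase, lay between −0.39 and 0.37 over the 5 comparisons, and Plcg2, a phospholipase, between −0.01 and 0.11.

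Among 17 genes of histamine, granule and lipid mediators, 2 passed 2-fold in at least 1 comparison, close to the share of all genes and transcripts that did so (11.9% of 22935). Aoc1, the diamine oxidase that degrades histamine, was detected in p53-/- cells alone. Its signal was 24.6 in Aspp1-/-p53-/-, 63.2 in p53-/-, 6.17 in Aspp1-/- and 9.72 in WT cells, so the difference of p53-/- over WT cells was at least 1.88 (log2) and Aspp1-/-p53-/- cells stood at −1.25 or less against p53-/-. Hpgds, which makes prostaglandin D2, was at −3.58, −3.12, −2.98 and −2.49 in Aspp1-/-p53-/-, p53-/-, Aspp1-/- and WT cells, and the Aspp1-/-p53-/- array stood at −1.09 against WT. Srgn, the proteoglycan core that stores granule proteases, lay between −0.25 and −0.03 over the 5 comparisons.

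Of 16 surface and lineage genes, 11 were detected, and 1 of them passed 2-fold in at least 1 comparison, no more than that share. Cd69, an early activation marker of many leukocytes, was at 3.96 in Aspp1-/-p53-/-, 4.83 in p53-/-, 5.16 in Aspp1-/- and 5.06 in WT cells, a difference of −1.19 for Aspp1-/-p53-/- against Aspp1-/- and −1.09 against WT cells. The basophil receptor Cd200r3 and the mast cell receptor Mrgprb2 were not well above background on any array. Ccr3, an eotaxin receptor of eosinophils and basophils, was detected in Aspp1-/- (−4.33) and WT cells (−4.11) but not in Aspp1-/-p53-/- or p53-/- cells. Those levels lay close to the floors of the Aspp1-/-p53-/- (−4.56) and p53-/- arrays (−4.63). The bounds were −0.22 or less in Aspp1-/-p53-/- against Aspp1-/-, −0.45 or less against WT and −0.52 or less in p53-/- against WT cells, short of 2-fold. Cd63, a granule membrane protein, lay between −0.16 and −0.06.

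Transcription factors of the lineage were detected on every array, 16 of 16, and 1 of them passed 2-fold in at least 1 comparison, again no more than the share of all genes. This was Bhlhe40, a factor that basophils and mast cells use for cytokine expression, at −2.01, −2.07, −1.45 and −0.67 in Aspp1-/-p53-/-, p53-/-, Aspp1-/- and WT cells. It was lower in Aspp1-/-p53-/- against WT (−1.33) and in p53-/- against WT cells (−1.40). Lmo2, a partner of GATA factors, lay between −0.10 and −0.01. Gata2, named for its role, was at 3.41, 3.54, 3.60 and 3.62 in Aspp1-/-p53-/-, p53-/-, Aspp1-/- and WT cells.

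Eosinophil genes, which mark a related granulocyte, were mostly below their WT level in the mutants, but few passed 2-fold. Of 8 measured genes, 3 were at least 2-fold lower than WT in Aspp1-/-p53-/- cells (2.43% of all genes and transcripts were), 2 in p53-/- cells (1.52%) and 1 in Aspp1-/- cells (2.16%). The difference from WT was below 0 for 8 of 8 in Aspp1-/-p53-/- cells (median −0.92, set by the bounds of Ear1 and Ear10, as 3 of the 8 were not well above background there), 7 of 8 in p53-/- cells (median −0.60, with Ear1 as a bound) and 8 of 8 in Aspp1-/- cells (median −0.61). The granule genes Epx (eosinophil peroxidase) and Prg2 (major basic protein) were at least 2-fold lower in Aspp1-/-p53-/- cells, at −1.54 or less and −1.04, and in p53-/- cells, at −1.32 and −1.31. In Aspp1-/- cells Epx was at −1.68 and Prg2 at −0.78. Ear2, an eosinophil ribonuclease, was at −1.71 in Aspp1-/-p53-/- cells. Cebpe, a factor of granulocyte maturation, was at −0.54, −0.01 and −0.39 against WT in Aspp1-/-p53-/-, p53-/- and Aspp1-/- cells. The summed level was low throughout, 2.67 in Aspp1-/-p53-/-, 3.63 in p53-/-, 3.05 in Aspp1-/- and 4.31 in WT cells, and the 3 comparisons share the 1 WT array, which was the highest. The part of eosinophil precursors in the values of the 8 genes was not tested. Erythroid and megakaryocyte genes, Klf1 and Car2 among them, were detected in 11 of 12. None passed 2-fold in any comparison, where 11.9% of all genes and transcripts did.

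**Figure D4:**
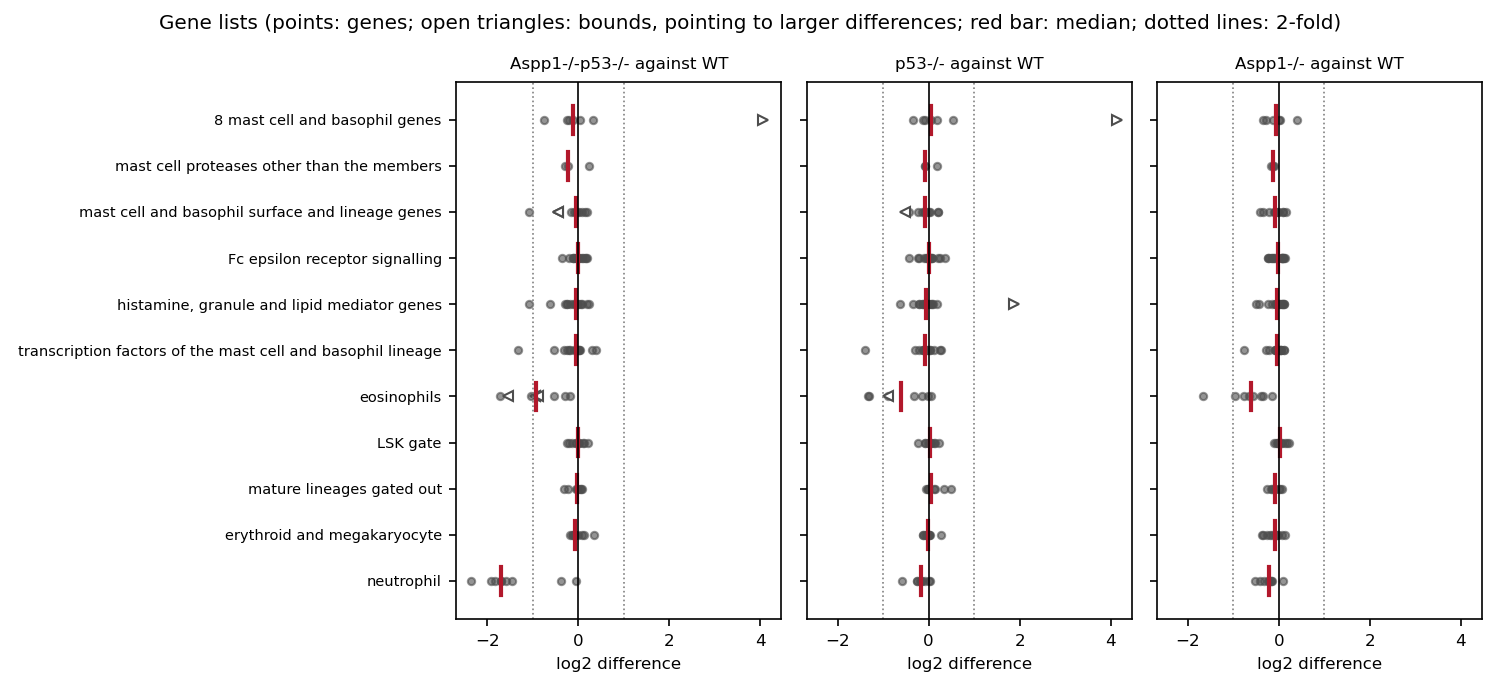
Log2 differences against WT (x axes) of the mast cell and basophil genes and of 10 lists (rows), for Aspp1-/-p53-/-, p53-/- and Aspp1-/- cells in panels from left to right. The row of the 8 genes holds the 7 measured, and 6 in the Aspp1-/- panel, where Tpsab1 gave no value. Points are genes, open triangles are bounds, red bars are medians and dotted lines mark 2-fold. Medians of the FcεRI signalling list stay near 0, eosinophil medians are −0.92, −0.60 and −0.61, and the neutrophil median is −1.70 in Aspp1-/-p53-/- cells.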

How the data were processed

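Total RNA of LSK cells, pooled from 3 mice per genotype, was labelled with Cy3 and hybridised to 4 arrays of Agilent design 028005, all on 1 slide and from 1 scan. Per the file headers, the images were read by Feature Extraction 10.7.3.1 with probe positions in mm9. Its processed intensity, as deposited, has the background subtracted and the trend over the slide removed, with no scaling between arrays, and the raw mean and local background intensity were also used. The other deposited values used were flags of 0 or 1. The authors' value table holds log2 values, probe-centred by the median over the arrays after an offset for each array whose origin is not given here. Its column medians were 0.0478 for Aspp1-/-p53-/-, 0.0267 for p53-/-, −0.0422 for Aspp1-/- and −0.0661 for WT. Direction, scale and centring were read from the values, and differences in that table had r = 1 with the scanner's across 26465 probes.

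On each array 3671 control spots were left out, as were the 120 to 172 spots flagged as outliers, and no spot was saturated. Log2 intensity was set relative to the 75th percentile of each array's gene spots, a signal of 537 for Aspp1-/-p53-/-, 580 for p53-/-, 599 for Aspp1-/- and 571 for WT. Between 50.3% and 53.3% of probes were well above background, and the number of arrays, 1 per genotype, limits the precision. Probes were named through their RefSeq accession (26754), by symbol (3823) or by the file's name (25098). A gene was read by its brightest probe among those detected on at least 1 array. A gene detected in 1 group of a comparison was given as a bound. The undetected group was set at its own value or at the lowest signal called on its array, whichever was higher, which is a rule and no strict limit. Differences were computed in Python 3.11.15 with a size rule of 2-fold, and the additive model was fitted in R 4.3.3 with limma 3.58.1. Promoters came from RefSeq (GRCm38.p6).

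The 8 genes, the lists and the rules were chosen with earlier results of these data known. From each list the text names genes past 2-fold in any comparison and those with the highest and the lowest mean level; Fcer1g, Gata2, Cma2, Ear10, the undetected genes and Sat2 are named besides. The alternatives were scaling by the median of detected probes, quantile normalisation, normexp background correction with an offset of 50, the authors' table, the mean of a gene's probes and probes detected on all 4 arrays. Setting dim spots to the array's floor was added after seeing the data.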

Additional observations from a re-analysis of the deposited data

Results flagged for a closer look

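With 1 array per genotype, the effect of one loss can be set beside the same loss in the other background, and 6 genes had opposite signs in at least 1 of these pairs. The difference between the effects was not tested. By arithmetic it is the same number for either loss, so each gene has 1 such value and its pairs are not separate evidence. For Hdc, with opposite signs for p53 loss alone, this difference was −0.52 on the log2 scale (technical error 0.29). For Tpsb2, with opposite signs for both losses, it was −0.60 (technical error 0.30). For Prss34, also with opposite signs for both losses, it was −0.33 (technical error 0.29). The difference was 0.28 for Fcer1a (opposite signs for Aspp1 loss alone), 0.23 for Mcpt8 (p53 loss alone) and 0.11 for Cpa3 (both losses). These last values lay within the technical error of 0.29 to 0.32.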

How the results depend on the processing

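Under 6 other ways of processing, 195 of 200 recomputed differences of the 7 measured genes moved by less than the technical error, and the 5 that moved were all of Tpsab1. The mean of a gene's probes and the limit to probes detected on all 4 arrays could move no value, since each measured gene had 1 detected probe. Their values are counted among the 195, which therefore overstates how far the processing was varied. For Tpsab1 in Aspp1-/-p53-/- against Aspp1-/- cells the technical error was 1.45, so its 5.99 in the authors' table did not count as moved. Sign changed in 3 values, all of Cpa3 and none larger than 0.034 in size: with normexp −0.02 in Aspp1-/-p53-/- against Aspp1-/- and −0.02 against WT cells, and in the table of the authors it was 0.0017 in Aspp1-/- against WT cells. With normexp background correction Tpsab1 was at 2.21 in Aspp1-/-p53-/- against Aspp1-/-, 2.12 in Aspp1-/-p53-/- against WT and 2.15 in p53-/- against WT cells, and in the authors' table, whose values for the dim arrays follow the software's surrogates and are no bound, at 5.99, 6.02 and 6.08 in the same order. Among probes detected on all 4 arrays, which leaves Tpsab1 out by construction, the count of genes at least 2-fold higher was 0 in these 3 comparisons. With dim spots at the array floor, the effect of p53 loss on Tpsab1 was 4.54 (limma, adjusted p = 0.481). No paired analysis was possible because each genotype has 1 array. Signals near background limit what can be said of Ms4a2, Aoc1 and Epx.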
